A study of Mus musculus with 16 samples.

Results

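The mesothelium is the flat epithelial layer that covers the organs and fat pads of the peritoneal, pleural and pericardial cavities. Its cells secrete a lubricating fluid and carry an unusual mixture of epithelial proteins (keratins, uroplakins, mucins) and mesodermal transcription factors, of which WT1 is the best known. Visceral white fat is covered by mesothelium, and mesothelial cells have been proposed as one source of visceral adipocytes. A set of 10 genes used as markers of this layer was followed here: the transcription factors Wt1 and Bnc1, the surface proteins Msln, Upk3b, Upk1b, Lrrn4 and Gpm6a, the cytoskeletal protein Krt19, the mucin Muc16 and the secreted lubricant Prg4. Each gene was matched to array probes by the transcript accession in the array files. A single probe was found for 9 of the 10 genes, Muc16 was matched to none and is not analysed further, and the 9 stand among 25107 features tested (16677 named genes and 8430 probes with no gene name). Wt1 and Prg4 had drawn attention through their lower levels in knockout white fat, so the genes were chosen by measured values of that contrast, which is given below as a description, with no test.

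RNA came from 4 groups of female mice. The white adipose tissue (WAT) and the brown adipose tissue (BAT) of mice with an adipose-tissue specific knockout of the glucocorticoid receptor (GR, gene Nr3c1) were set against the same tissues of wild-type controls, with 4 arrays for each group. The Cre driver, the age of the mice and the white fat depot are not given in the sources used here. In bulk tissue, fewer mesothelial cells and less RNA per cell cannot be told apart.

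Levels are log2 processed signals scaled to the array's 75th percentile, so that 0 is the signal of a fairly bright probe and a step of 1 is a doubling. Each array's 75th percentile lay between 298 and 1035 signal units, and 66.7 to 83.6% of probes were well above background. WAT knockout arrays 1 and 2 differed by less than the noise between repeated spots (SD of the log2 difference 0.0831, against 0.0906 from spot noise) and were counted as 1 sample, called 1-2 here, which leaves 3 WAT knockout samples. Nr3c1, by the brightest of its 4 probes, stood at 63.4% of the control mean in WAT knockouts and at 48.8% in BAT knockouts, with no overlap of groups in either tissue (exact two-sided permutation p = 0.0286 in each, the smallest these sample numbers allow). Its other 3 probes overlapped between the WAT groups, at 77.0, 87.8 and 118% of the control mean, and 1 of the 3 overlapped in BAT. The brown fat samples carried the markers of their label: all 10 brown adipocyte markers tested, Ucp1 among them, were lower in WAT than in BAT in both genotypes (adjusted p below 0.05 in limma). The study's design calls the samples biological replicates and says no more on how animals map to arrays, so p-values measure the spread between these samples.

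The start regions of 5 of the genes (Upk3b, Lrrn4, Bnc1, Gpm6a and Muc16) were held in the RefSeq promoter table (build GRCm38.p6), each window running from 250 bases before the start of the gene to 50 bases after it. These 4 are shown because their genes moved together in white fat, and capitals mark short motifs searched on both strands: AGAACA, a GR half-site, and GGAATG, the binding motif of TEAD factors.
Upk3b (chr5:136038246-136038545, + strand): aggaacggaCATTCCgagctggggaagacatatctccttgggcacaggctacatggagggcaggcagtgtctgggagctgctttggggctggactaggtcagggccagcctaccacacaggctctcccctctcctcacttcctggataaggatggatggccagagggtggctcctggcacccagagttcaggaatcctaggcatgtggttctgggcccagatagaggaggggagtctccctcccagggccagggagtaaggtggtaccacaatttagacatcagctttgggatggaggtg
Lrrn4 (chr2:132880813-132881112, - strand): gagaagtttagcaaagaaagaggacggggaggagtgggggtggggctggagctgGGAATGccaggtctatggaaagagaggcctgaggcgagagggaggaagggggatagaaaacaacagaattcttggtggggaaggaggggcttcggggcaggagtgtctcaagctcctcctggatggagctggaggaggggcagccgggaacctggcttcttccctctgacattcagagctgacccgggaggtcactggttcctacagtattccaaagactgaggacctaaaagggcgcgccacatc
Gpm6a (first of its 2 windows, chr8:54779184-54779483, + strand): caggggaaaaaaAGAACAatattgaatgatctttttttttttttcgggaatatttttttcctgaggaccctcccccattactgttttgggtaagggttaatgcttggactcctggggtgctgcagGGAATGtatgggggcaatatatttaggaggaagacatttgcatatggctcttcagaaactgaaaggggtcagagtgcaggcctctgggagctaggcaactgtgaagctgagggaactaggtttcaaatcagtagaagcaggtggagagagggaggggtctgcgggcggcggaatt
Bnc1 (chr7:81992250-81992549, - strand): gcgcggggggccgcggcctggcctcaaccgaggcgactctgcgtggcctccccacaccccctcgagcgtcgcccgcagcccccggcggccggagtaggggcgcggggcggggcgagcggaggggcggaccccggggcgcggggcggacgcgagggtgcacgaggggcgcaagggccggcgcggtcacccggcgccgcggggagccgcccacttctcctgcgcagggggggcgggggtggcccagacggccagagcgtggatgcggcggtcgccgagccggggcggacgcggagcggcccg
The Upk3b and Lrrn4 windows each held 1 TEAD motif, at positions -241 and -196 from the start. The Gpm6a window held a GR half-site at position -238 and a TEAD motif at -125, and the Bnc1 window, of which 83.3% was G or C, held neither. Among all 32851 windows of the table, 19.0% held the GR half-site and 14.7% held the TEAD motif, so single matches of this kind are common. The TATA box letters TATAAA, found in 13.6% of all windows, were in none of these 4. Of the windows not shown, that of Muc16 held a GR half-site at position -41. The second Gpm6a window held TATAAA at -211 and neither of the other motifs. A match is a run of letters, not an occupied site.

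White fat of control mice carried the mesothelial genes at levels far above those of brown fat, and in white fat of knockout mice the mean of every one of them was lower. In WAT, the differences between knockouts and controls lay between -4.45 and -1.92 on the log2 scale, with a median of -2.99 over the 9 genes, while the median of all 25107 features was 0.24. For 7 of the 9 genes every knockout sample was below every control, where 1.23% of all features were lower with no overlap and 7.7% did not overlap in either direction. In BAT, none of the 9 genes passed the test between knockouts and controls, where 0.0159% of all features did. Between tissues, 5 of 9 were called higher in WAT than in BAT in knockouts, against 13.9% of all features. In controls 9 of 9 were, against 14.3%. The choice of genes and the signal filter bear on these counts, and the count in knockouts was 2 under normexp, another background correction.

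**Figure D1:**
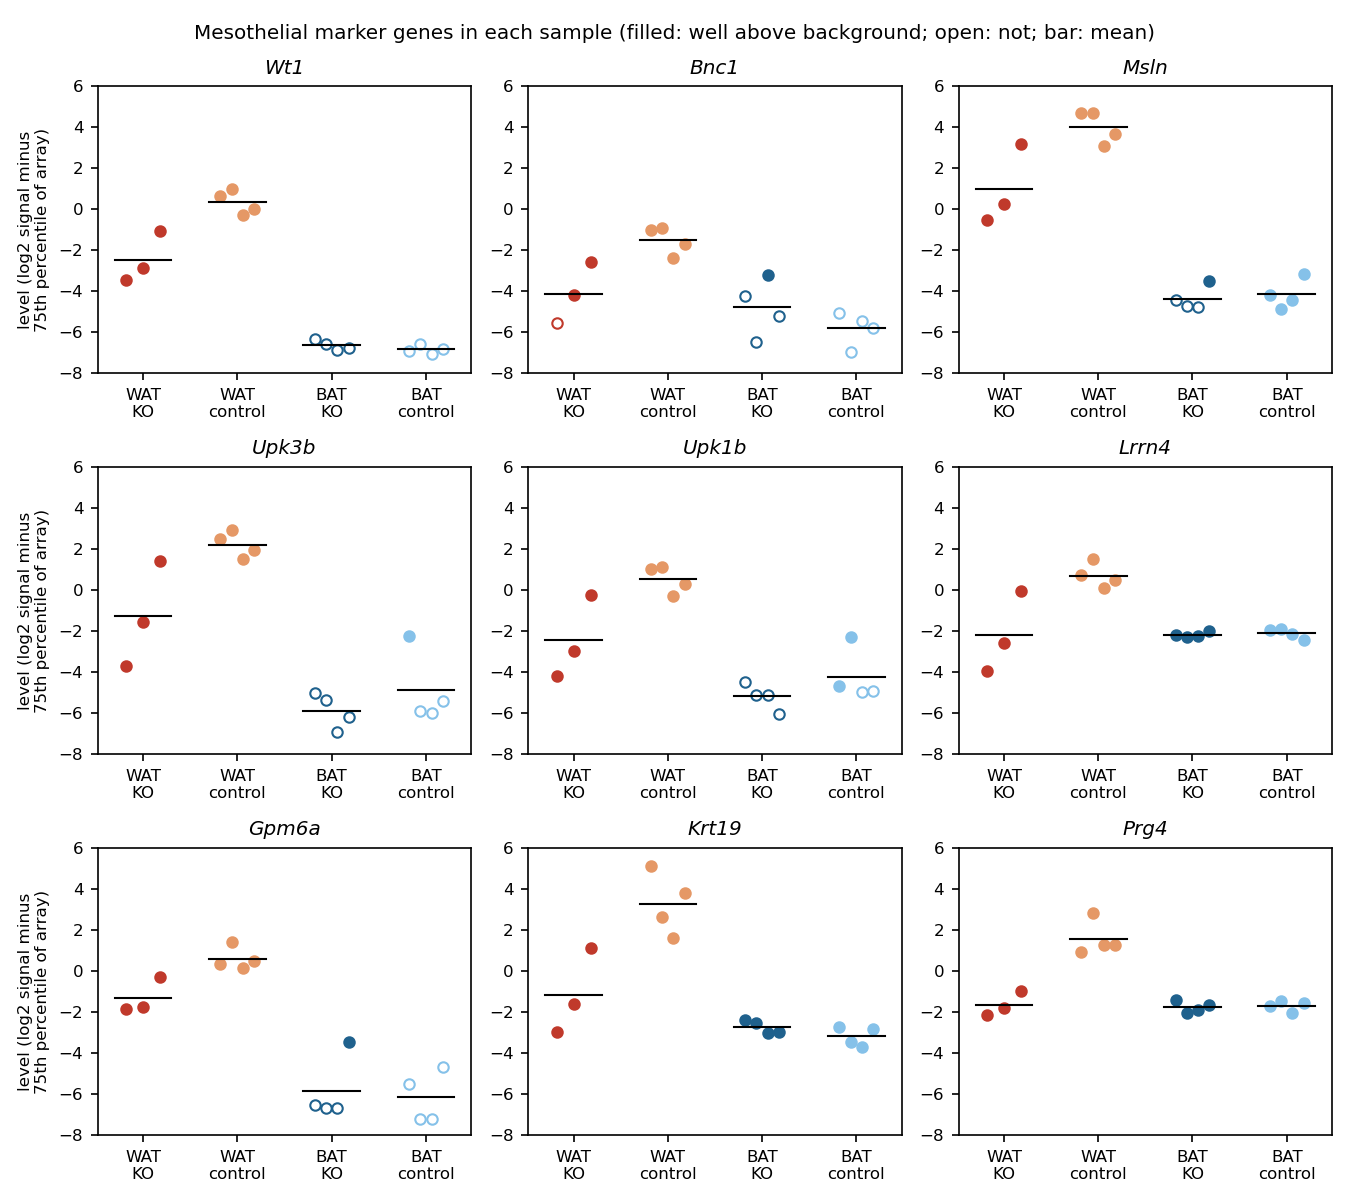
Level of each mesothelial marker gene in every sample (log2 signal scaled to the array's 75th percentile), one panel per gene, with the WAT groups left of the BAT groups and each knockout group left of its control. Filled points were well above background, open points were not, and bars are group means. Control white fat is highest in every panel, with a WAT knockout sample reaching into its range for Msln and Upk1b.

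Wt1 encodes a zinc finger transcription factor of the urogenital ridge, the mesothelium and the progenitors of visceral fat. Its level was -3.48, -2.88 and -1.09 in WAT knockout samples 1-2, 3 and 4, against 0.65, 0.96, -0.28 and -0.0042 in WAT controls 1 to 4. Knockout sample 4 was the closest to the controls, but the groups did not overlap. The mean was -2.48 ± 1.25 in knockouts (SD, n = 3) and 0.33 ± 0.57 in controls (SD, n = 4), a difference of -2.81 ± 0.45 (SE). Every SE given for a gene comes from a fit in which all 4 groups share 1 spread. For Wt1 this spread took in the narrow BAT groups (SD 0.24 in knockouts and 0.20 in controls). Where WAT knockouts scatter more than the other groups, as here, the SE understates the uncertainty of the WAT difference. In signal units, before scaling, Wt1 read 63.7, 64.9, 99.6 and 229 on WAT knockout arrays 1 to 4, against 1136, 1598, 681 and 1032 on the control arrays. In BAT its level was -6.32, -6.59, -6.87 and -6.78 in knockouts, against -6.92, -6.59, -7.05 and -6.81 in controls, and the probe was not well above background on any BAT array of either genotype. No difference between BAT groups can be read from values at background.

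Bnc1 encodes basonuclin, a zinc finger protein of keratinocytes, germ cells and mesothelium. Its level was -5.58, -4.22 and -2.61 in WAT knockout samples 1-2, 3 and 4, against -1.04, -0.92, -2.38 and -1.70 in controls 1 to 4. All knockout samples lay below all controls, although knockout 4 and control 3 were only 0.23 apart. The difference in WAT was -2.63 ± 0.77 (SE). In BAT the level was -4.24, -6.48, -3.22 and -5.24 in knockouts, against -5.05, -6.95, -5.48 and -5.83 in controls, and the probe was well above background on 1 of 4 knockout arrays and on 0 of 4 control arrays.

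Msln encodes mesothelin, a glycoprotein anchored to the outer surface of mesothelial cells, where it binds MUC16. The level of Msln was -0.53, 0.23 and 3.15 in WAT knockout samples 1-2, 3 and 4, against 4.66, 4.66, 3.08 and 3.64 in controls 1 to 4. Knockout samples 1-2 and 3 were far below every control, whereas knockout 4 was just above control 3, so the groups overlapped. The mean was 0.95 ± 1.94 in knockouts (SD, n = 3) and 4.01 ± 0.79 in controls (SD, n = 4), and the difference was -3.06 ± 0.73 (SE). In BAT, Msln stood at -4.45, -4.73, -4.79 and -3.53 in knockouts, against -4.19, -4.85, -4.45 and -3.15 in controls. Those groups overlapped, and the probe was well above background on 1 of 4 knockout arrays and 4 of 4 control arrays.

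Upk3b and Upk1b encode uroplakins, membrane proteins first known from the bladder lining. The level of Upk3b was -3.70, -1.56 and 1.42 in WAT knockout samples 1-2, 3 and 4, against 2.51, 2.92, 1.502 and 1.93 in controls 1 to 4. The groups did not overlap, although knockout 4 lay within 0.08 of control 3, and the difference was -3.49 ± 1.06 (SE). Upk1b stood at -4.20, -2.95 and -0.23 in the knockout samples, against 1.004, 1.13, -0.31 and 0.28 in the controls. Here knockout 4 lay above control 3, so the groups overlapped, and the difference was -2.99 ± 0.83 (SE). The markers of urothelium, the bladder lining, did not separate these groups: the level of 7 such genes relative to their own means over all samples ranged from -0.45 to 0.64 in WAT knockouts and from -0.63 to 1.13 in WAT controls. In BAT, Upk3b stood at -5.02, -5.34, -6.94 and -6.21 in knockouts, against -2.26, -5.91, -5.995 and -5.43 in controls, and was well above background on 0 of 4 knockout arrays and 1 of 4 control arrays. Upk1b stood at -4.49, -5.11, -5.13 and -6.05 in BAT knockouts, against -4.69, -2.30, -4.97 and -4.94 in BAT controls, and was well above background on 0 of 4 knockout arrays and 2 of 4 control arrays. Both genes were thus near background in BAT, with 1 control sample each, a different one, above the rest.

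Lrrn4 and Gpm6a encode membrane proteins that are also found in neurons. The level of Lrrn4 was -3.95, -2.58 and -0.04 in WAT knockout samples 1-2, 3 and 4, against 0.71, 1.49, 0.11 and 0.49 in controls 1 to 4. Every knockout sample lay below every control, knockout 4 narrowly so, and the difference was -2.89 ± 0.64 (SE). Gpm6a stood at -1.88, -1.77 and -0.31 in the knockout samples, against 0.35, 1.41, 0.15 and 0.50 in the controls. This was the smallest difference of the 9, -1.92 ± 0.80 (SE), again with no overlap. The genes parted in BAT. Lrrn4 was well above background on every BAT array, at -2.18, -2.30, -2.25 and -1.98 in knockouts, against -1.97, -1.89, -2.13 and -2.42 in controls. Gpm6a was near background there, at -6.54, -6.67, -6.68 and -3.48 in knockouts, against -5.52, -7.20, -7.24 and -4.69 in controls, and was well above it on 1 of 4 knockout arrays and 0 of 4 control arrays.

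Krt19 encodes keratin 19, an intermediate filament protein of simple epithelia. Its level was -2.98, -1.62 and 1.13 in WAT knockout samples 1-2, 3 and 4, against 5.10, 2.63, 1.60 and 3.82 in controls 1 to 4. All knockout samples were below all controls, and the difference of -4.45 ± 0.85 (SE) was the largest of the 9 with all samples. Controls 1 and 4, where Krt19 was highest, were also the samples that held intestinal transcripts: the villus and gut lining gene Vil1 stood at 5.61 and 4.41 there, against -3.23 and -1.41 in controls 2 and 3. Without those 2 controls the Krt19 difference was -3.27, a 9.67-fold lower mean in knockouts, against 21.8-fold with them, and the Prg4 difference of -3.67 was then the largest. In BAT, Krt19 was well above background on every array, at -2.38, -2.53, -3.02 and -2.98 in knockouts, against -2.73, -3.48, -3.70 and -2.84 in controls.

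Prg4 encodes lubricin, the glycoprotein that lubricates joint and serosal surfaces. The level of Prg4 was -2.12, -1.83 and -0.97 in WAT knockout samples 1-2, 3 and 4, against 0.95, 2.81, 1.25 and 1.29 in controls 1 to 4. The groups were separated by more than 1 log2 step at every sample, and the difference of -3.21 ± 0.39 (SE) had the smallest error of the 9. In BAT, Prg4 was well above background on every array, at -1.43, -2.05, -1.90 and -1.65 in knockouts, against -1.71, -1.49, -2.06 and -1.56 in controls.

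The size of the difference in white fat varied widely between knockout samples. Over 7161 bright probes, knockout 4 also lay nearer to the WAT controls than to its own group. Its SD of the log2 difference was 0.319 to 0.566 against the WAT control arrays, and 1.007 to 1.18 against the other WAT knockout arrays. The WAT control arrays differed from each other by 0.195 to 0.518. The spread between knockouts was thus not confined to these 9 genes, and its cause was not tested. Set against the control mean of each gene, the median over the 9 genes was 4.31% in knockout sample 1-2, 9.46% in knockout sample 3 and 53.1% in knockout sample 4. The control samples had medians between 61.0 and 157%. Over single genes, knockout sample 4 held between 17.2 and 59.9% of the control mean. Control 3, the control of lowest median, held between 31.1 and 80.1%, so these ranges overlapped. Prg4 was the member of lowest share in knockout 4 (17.2%), followed by Krt19 (22.4%) and Wt1 (37.5%), and the other 6 genes held 46.7 to 59.9%. Within slides, each of which held 1 array of every group, the median difference over the 9 genes was -3.53, -5.09, -0.23 and -4.26. The slides with -5.09 and -4.26 held knockout arrays 2 and 1, which count as 1 sample, so the 4 values rest on 3 knockout samples. On the slide with -0.23, which paired knockout 4 with control 3, 7 genes were lower and 2 were higher in the knockout. Without knockout 4 the median difference was -3.97, without knockout 3 it was -2.70 and without knockout 1-2 it was -2.29, with all 9 genes lower in knockouts in each case. Under normexp, another background correction, all 9 were lower by less: Bnc1 differed by -1.01, Wt1 by -1.78 and Krt19 by -3.54, with a median of -1.87. Array position on the slide was fixed for each group, so array position and group cannot be told apart.

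**Figure D2:**
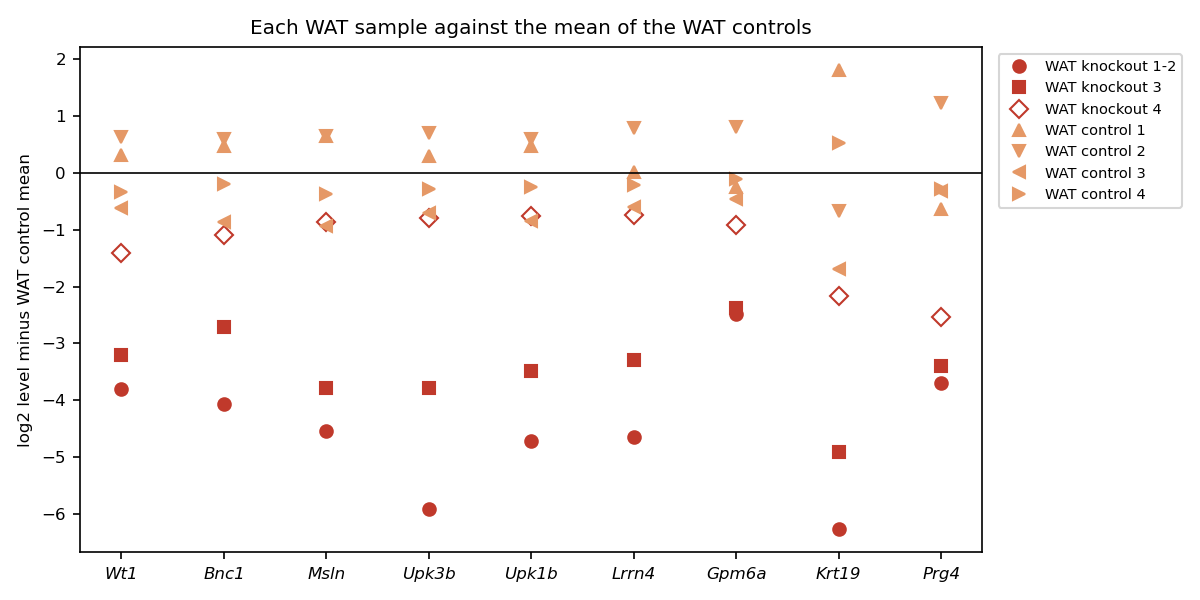
Level of each marker gene in the 7 WAT samples minus the mean of the WAT controls for that gene (log2), with knockout samples in red (1-2 and 3 filled, 4 open) and controls in orange. Knockout samples 1-2 and 3 lie lowest for every gene, and knockout 4 lies among or just below the controls for most genes but well below them for Prg4.

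Markers of other cell types shifted between the same WAT samples, and their part in the lower mesothelial levels was not tested. Each gene was centred on its mean over all samples, and a list's value for a sample is the median of these centred levels. The mesothelial genes stood at -1.29, -0.09 and 2.64 in WAT knockouts 1-2, 3 and 4, against 3.87, 4.00, 2.55 and 3.80 in WAT controls 1 to 4. Across the 18 adipocyte markers the values were -2.19, -1.24 and 0.69 in those knockouts, against 0.15, 0.10, -0.16 and -0.44 in controls. For 10 B cell markers they were 5.05, 4.73 and -1.29 in knockouts, against 0.16, -0.24, 3.62 and 2.97 in controls, and the 10 T cell markers put the WAT samples in the same order. Lymphocyte markers were high in the 2 knockout samples with the lowest mesothelial levels and low in knockout 4, while controls 3 and 4, also high in lymphocyte markers, had mesothelial levels of 2.55 and 3.80. The 12 fibroblast markers ranged from -0.96 to 0.90 in knockouts and from 0.53 to 1.74 in controls, and the 6 mast cell markers from -1.93 to -0.02 in knockouts and from 0.38 to 1.40 in controls. Intestinal markers (23 genes) stood at 7.03 and 5.42 in controls 1 and 4 and between -1.58 and 0.60 in the other WAT samples. Leaving out controls 1 and 4 gave a median mesothelial difference of -2.92.

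**Figure D3:**
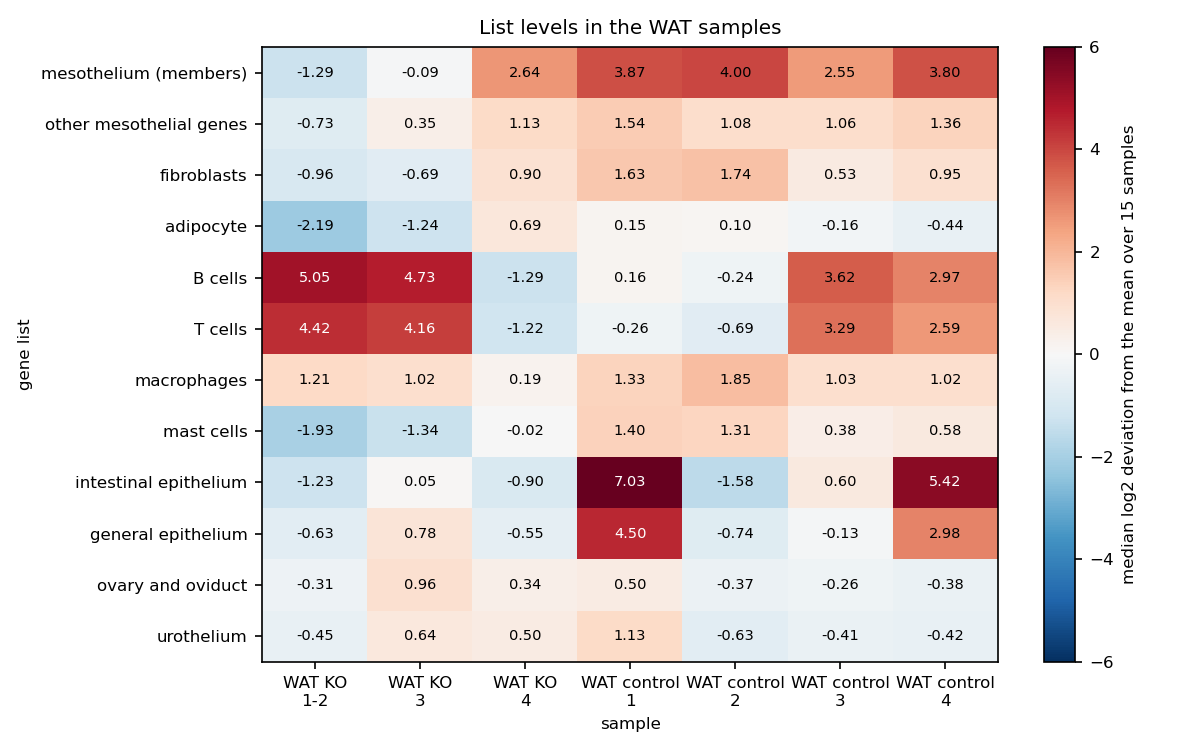
Level of each marker list (median of its genes, each centred on its mean over 15 samples, log2) as rows, in each WAT sample (columns, knockouts left of controls), with the value printed in each cell. The mesothelial row is lowest in knockouts 1-2 and 3, where the adipocyte row is also lowest and the B and T cell rows are highest, and the intestinal row is high only in controls 1 and 4 among these samples.

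In brown fat, the test between knockouts and controls called none of the 9 genes (limma, adjusted p over all 25107 features), and 0 of 9 had an unadjusted p below 0.05. The background of calls was small, 0.0159% of features, or 4 in all. The smallest adjusted p among the 9 was 0.586, for Bnc1, whose difference of 1.03 ± 0.72 (SE) rested on 1 knockout array well above background. The median difference was -0.05, with 5 genes lower and 4 higher, and all 9 pairs of groups overlapped, where 18% of all features did not. The 3 genes measured on every BAT array gave differences of -0.07 ± 0.59 for Lrrn4 (adjusted p = 0.981), 0.46 ± 0.79 for Krt19 (adjusted p = 0.880) and -0.05 ± 0.36 for Prg4 (adjusted p = 0.975) in the same fit (SE, n = 4 each). These SEs and adjusted p-values also carry the spread of the WAT samples, which weakens the test in BAT. For Lrrn4 the SD was 0.14 in BAT knockouts and 0.23 in BAT controls, against 1.98 in WAT knockouts. For Krt19 it was 0.32 and 0.47, against 2.09. The exact two-sided permutation p, from the BAT samples alone, was 0.6 for Lrrn4, 0.171 for Krt19 and 0.8 for Prg4. For the other 6 genes, levels near background limit what a difference can show. Whether the knockout effect itself differs between white and brown fat was not tested, since the white fat contrast chose the genes.

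Between the tissues, the tests use the WAT samples of the contrast that chose the genes. A feature entered the fit if 3 or more of the 4 arrays in any 1 group measured it well above background, and Wt1, Bnc1, Upk3b, Upk1b and Gpm6a met this in WAT groups only, so a higher value in WAT was partly set by the filter for them. Msln, Lrrn4, Krt19 and Prg4 met it in a BAT group as well. The counts of called genes and the p-values of both tissue comparisons are therefore descriptions.

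In knockout mice, 5 of the 9 genes were called between tissues, all higher in WAT (limma, two-sided, adjusted p below 0.05), where 13.9% of features were called higher and 10.7% were higher with no overlap. Msln had a fitted mean 40.2-fold higher in WAT (5.33 ± 0.73 SE, adjusted p = 0.000146), and Gpm6a one 23.0-fold higher (adjusted p = 0.00103, exact permutation p = 0.0571). Both folds rest on BAT values near background, since 1 of 4 BAT knockout arrays was well above it for each, and for Gpm6a that was BAT knockout 4, which stood apart from the others. Where a probe was not well above background on any array of a group, a floored fold is given, which is not a lower limit. It takes, on each such array, the higher of the probe's own signal and the dimmest signal well above background. The floored fold was 9.82 for Upk3b, 4.34 for Upk1b and 4.27 for Wt1. The test was of the fitted log2 differences, not of the floored folds. These were 4.60 for Upk3b (adjusted p = 0.00556), 2.73 for Upk1b (adjusted p = 0.0233) and 4.16 for Wt1 (adjusted p = 2.30e-05). For Upk1b the call was lost without WAT knockout 4 (adjusted p = 0.0871) and without BAT knockout 4 (adjusted p = 0.0629). Under normexp the log2 differences were 0.99 for Wt1 (adjusted p = 0.129), 1.88 for Upk3b (adjusted p = 0.0562) and 0.89 for Upk1b (adjusted p = 0.325). These calls were all lost, and each difference was a smaller fold than the floored one.

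The 4 genes that were not called in knockouts were Lrrn4, Bnc1, Krt19 and Prg4. In knockout mice Lrrn4 averaged -2.19 ± 1.98 in WAT (SD, n = 3) and -2.18 ± 0.14 in BAT (SD, n = 4), a difference of -0.01 ± 0.64 (SE, adjusted p = 0.993 in limma). Prg4 averaged -1.64 ± 0.60 in WAT and -1.76 ± 0.27 in BAT, a difference of 0.12 ± 0.39 (SE, adjusted p = 0.862). The Prg4 samples of the 2 tissues overlapped, and the means differed by less than their spread. Krt19 differed by 1.57 ± 0.85 (SE, adjusted p = 0.191) and Bnc1 by 0.66 ± 0.77 (SE, adjusted p = 0.583). Without WAT knockout 4, Lrrn4 was called lower in WAT (-1.09, adjusted p = 0.0329), at levels of -3.95 and -2.58 in the 2 remaining samples.

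In control mice, all 9 genes were called higher in WAT than in BAT, where 14.3% of features were. All 9 also showed no overlap, as did 18.5% of features in this direction, and the exact two-sided permutation p was 0.0286 for each, the smallest that 4 against 4 samples allow. Msln, well above background on all BAT control arrays, had a 288-fold higher mean in WAT (8.17 ± 0.67 SE, adjusted p = 1.69e-06). Its fitted difference ranked 6 from the top among all features. Its BAT control signals were only 18.9 to 56.5 units, so this fold too rests on BAT values near background. The lowest log2 difference of Msln over the alternatives run was 6.41. For Wt1, with BAT at background, the floored fold was 38.8. Its fitted difference was 7.17 ± 0.42 (SE, adjusted p = 1.13e-07), and the filter partly set its direction. The floored fold was 46.8 for Gpm6a and 10.6 for Bnc1. Over the alternatives run, the lowest log2 differences were 3.38 for Wt1, 3.48 for Gpm6a and 1.84 for Bnc1. Each of these is a smaller fold than the floored one. The fitted mean of Upk3b was 138-fold higher (7.11 ± 0.99 SE, adjusted p = 0.000104) and that of Upk1b 27.0-fold higher (4.75 ± 0.77 SE, adjusted p = 0.000339), with 1 and 2 of 4 BAT control arrays well above background, so these folds rest on BAT values near background. Krt19 was 89.0-fold higher (6.47 ± 0.79 SE, adjusted p = 3.58e-05), and without the WAT controls that held intestinal transcripts it was 39.4-fold higher. Prg4 (9.70-fold, adjusted p = 1.66e-05) and Lrrn4 (2.81 ± 0.59 SE on the log2 scale, adjusted p = 0.00233) were both measured on every BAT array. The tissue differences of knockouts and controls were not tested against each other.

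**Figure D4:**
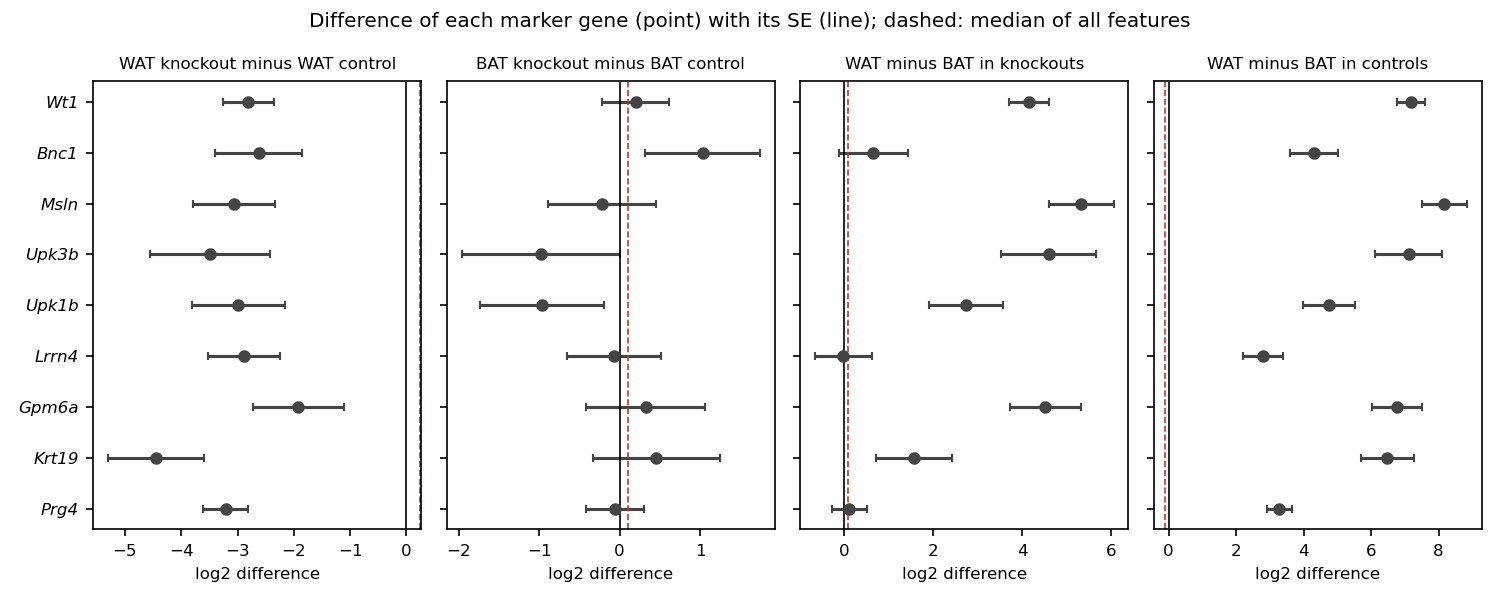
Difference of each marker gene on the log2 scale (point) with its SE (line) in 4 comparisons, with the dashed line at the median of all features. All 9 points lie far left of 0 for WAT knockout minus WAT control, and on both sides of 0 for BAT. For WAT minus BAT, Lrrn4 and Prg4 lie at 0 in knockouts, and all 9 lie right of 0 in controls.

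Over the 4 groups, WAT controls had the highest mean for all 9 genes, and the BAT groups overlapped with each other for all 9. For Wt1, Msln and Gpm6a, WAT knockouts came next and lay clear of both BAT groups. For Upk3b and Upk1b they came next but reached into the range of the BAT controls, and for Bnc1 and Krt19 they overlapped with both BAT groups. In Lrrn4, Prg4, Bnc1 and Upk1b, WAT knockout samples 1-2 and 3 lay within or below the range of the BAT samples. Only knockout 4 lay above it. For Bnc1 and Upk1b the BAT values were near background, and for Upk1b the range reached samples 1-2 and 3 only through BAT control 2 (-2.30).

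A list of 35 other mesothelial genes, taken from general knowledge of the tissue, had 33 measured members. In WAT, 27 of the 33 were lower and 6 higher in knockouts, with a median difference of -0.96, and 6 were lower with no overlap, where 1.23% of all features were. In BAT, 0 of 33 were called between genotypes and the median was 0.18. Between tissues, 13 were called higher and 2 lower in WAT than in BAT in knockouts (median 1.11), and 21 higher and 1 lower in controls (median 2.35). Among all features, 13.9% were called higher and 16.7% lower in knockouts, and 14.3% higher and 19.1% lower in controls.

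The brightest probes of this list in control white fat, which sets no order of RNA between genes, belonged to Rarres2 (the adipokine chemerin), Slpi (a secreted protease inhibitor), Efemp1 (the matrix protein fibulin-3), Rspo1 (an enhancer of Wnt signalling) and Krt8 (the keratin partner of Krt18). Rspo1 had levels of 0.39, 0.85 and 3.41 in WAT knockouts 1-2, 3 and 4, against 4.64, 4.60, 3.17 and 3.65 in controls 1 to 4, and knockout 4 lay above control 3, as it did for Msln and Upk1b. Efemp1 stood at 0.91, 1.95 and 4.89 in knockouts, against 5.09, 5.38, 4.25 and 4.69 in controls, with knockout 4 above controls 3 and 4. Slpi stood at 4.37, 4.20 and 4.42 in knockouts, against 5.59, 6.43, 5.21 and 5.38 in controls, with all 3 knockout samples alike and below the controls. Krt8 stood at -3.59, -2.21 and 0.37 in knockouts, and like Krt19 it was highest in the controls with intestinal transcripts (6.72 and 5.28 in controls 1 and 4, 1.84 and 1.64 in controls 2 and 3). Rarres2, which adipocytes also make, was highest of all in knockout 4 (7.12, against 4.41 and 4.86 in knockouts 1-2 and 3 and 5.91 to 6.88 in controls).

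Some genes of the list passed the test between tissues in both genotypes. Aldh1a2, which makes retinoic acid, was higher in WAT than in BAT by 5.03 ± 0.32 in knockouts (SE, adjusted p = 4.01e-07) and by 4.88 ± 0.29 in controls (SE, adjusted p = 1.39e-07), and its WAT difference between genotypes was 0.11. Slpi was higher in WAT by 8.06 ± 0.65 in knockouts and by 8.67 ± 0.60 in controls (SE). The sulfatase Sulf1 was higher by 1.98 in knockouts and 2.65 in controls, the transcription factor Gata6 by 1.90 in knockouts and 3.21 in controls, and Ildr2 by 3.11 in knockouts and 4.47 in controls. Clic5, a chloride channel family member, was the exception among these, with a difference of -4.60 in knockouts and -3.32 in controls. All of these passed the limma test at adjusted p below 0.05.

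Across the 7 WAT samples, the 9 genes varied together. The correlation of each gene with the median of the other members was 0.88 for Prg4, 0.918 for Krt19, 0.937 for Gpm6a and 0.984 to 0.995 for the other 6, and single pairs ran from 0.798 (Krt19 and Prg4) to 0.996 (Msln and Upk1b). These are descriptions over 7 samples that share arrays and scaling, and the difference between knockouts and controls lies within them. The 10 named genes outside the list with the pattern most like it over these samples were Ppl, Abat, Sult1e1, Gdf10, Tmem151a, Cd209f, Greb1l, Adgrd1, Ccl24 and Fras1, with Pearson r between 0.988 and 0.995. Of these, Tmem151a also belonged to the list of other mesothelial genes. Over all 15 samples the closest were Kcnab1, Nkain4, Selp, Scn3b and Rspo1, at 0.984 to 0.992, of which Nkain4 and Rspo1 belonged to that list. Nkain4 stood at -1.65, -0.73 and 1.78 in WAT knockouts 1-2, 3 and 4, against 2.67, 2.83, 1.59 and 1.94 in WAT controls, with knockout 4 again inside the control range.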

How the data were processed

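RNA of the 16 samples was labelled with Cy3 and hybridised to 1-colour Agilent whole mouse genome arrays, per the labels' protocols. Spot values came from Agilent Feature Extraction 12.0.0.7, per the file headers, and the authors' processed signal is a background-subtracted intensity that is not scaled between arrays. The deposited value table holds the same intensity, averaged over the spots of each probe (largest relative difference 5e-06). The deposited flag columns (well above background, saturated, outlier) are another kind of value, 0 or 1 for a spot.

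From these, log2 of the processed signal minus the array's 75th percentile was computed for 41174 probes, after leaving out control spots and outlier flags and averaging the spots of a probe. Gene names came from the files' accessions. For a gene with several probes, the probe with the highest mean level was used, and features had to be well above background on at least 3 of 4 arrays of a group. limma 3.58.1 in R 4.3.3 fitted 1 mean per group with all 4 groups sharing the spread (11 residual and 2.651 prior degrees of freedom), with Benjamini-Hochberg adjustment over all features and a threshold of 0.05. The fit was tested on simulated data with normal noise and the same spread of a gene in all groups. That simulation does not cover groups of unequal spread, such as the WAT knockouts.

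The genes, lists and comparisons were chosen with earlier results of these data known. Named by rule were all members, Nr3c1, the 5 other mesothelial genes highest in WAT controls, up to 5 called per tested comparison by smallest adjusted p, the 3 highest of each cell type list where a result turned on them, and the genes of most similar pattern. Vil1 in the text comes under this rule. Alternatives covered scaling, background correction, filters, probe choice, blocks, the samples in the fit and leaving out samples. The background-correction alternative used the median signal, because the mean signal column is not in the tables used here. Levels rest on arrays, so their number limits the precision. Correlations are descriptions with no test.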

Additional observations from a re-analysis of the deposited data

Results flagged for a closer look

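In groups of 4 samples, the gap between the most extreme sample and its nearest neighbour was divided by the range of the group and set against Dixon's 95% critical value. Of 27 groups of the 9 genes, 3 passed it, where chance passes about 1 in 20. All lie in BAT, for probes near background. Upk3b in BAT control 1 stood at -2.26, with the other BAT controls between -5.995 and -5.43 (ratio 0.848). Upk1b in BAT control 2 stood at -2.30, with the others between -4.97 and -4.69 (ratio 0.896). Gpm6a in BAT knockout 4 stood at -3.48, with the others between -6.68 and -6.54 (ratio 0.954). Each of these is a different sample, and in each the gene was well above background on that array. Without BAT controls 1 and 2, left out together in an alternative chosen after seeing the data, the BAT difference was -0.17 for Upk3b, against -0.98 with them, and -0.24 for Upk1b, against -0.97 with them, and neither was called in either fit. The remaining BAT values of both genes were near background.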

How the results depend on the processing

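The count of 0 genes called in BAT and the count of 9 called higher in WAT than in BAT in controls were the same under all 30 alternatives run. The count of 5 called between the tissues of knockouts was 2 under normexp background correction (offset 50), where Wt1 (0.99, adjusted p = 0.129), Upk3b (1.88, adjusted p = 0.0562) and Upk1b (0.89, adjusted p = 0.325) missed the threshold, and was 4 to 5 with 1 sample left out. Upk1b also missed it with only the compared groups in the fit (adjusted p = 0.0744). Without WAT knockout 4 the count was still 5, but it held Lrrn4, called lower in WAT, in place of Upk1b. The median BAT difference turned to 0.44 under normexp, which itself moved the median of all features to 0.34. With 1 sample left out it ran from -0.14 to 0.12. The median WAT difference ran from -3.97 to -2.29 with 1 sample left out, was -1.87 under normexp and -3.06 with the slide as a block. A replicate block gave -2.92 in WAT and -0.05 in BAT and changed no call of a member, and same-numbered samples did not deviate together (correlations from -0.47 to 0.32, with 0 of 6 pairs of groups above 0.1 throughout). The features called ran from 0 to 84 in BAT (4 as reported), from 2990 to 11456 between tissues in knockouts (7683 as reported) and from 4814 to 11334 in controls (8381 as reported). The causes were not tested. Signals at background limit the BAT values of Wt1, Bnc1, Msln, Upk3b, Upk1b and Gpm6a.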
